A study of Mus musculus with 12 samples.

Results

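The 9 genes described here encode complement proteins that hepatocytes secrete into blood: C3, Cfb, Cfi, Hc, C6, C8a, C8b, C8g and C9. They were taken by gene symbol, matched to Ensembl identifiers, from a liver mRNA table of 49398 genes; all 9 passed the filter on low counts, as did 13814 genes in all. The libraries came from whole livers of 12 wild-type C57BL/6J mice aged 9 months, each fasted for 5 hours before tissue was taken. For 8 weeks 4 mice ate AIN-93G chow with 5% (w/w) of an oil concentrate of very-long-chain polyunsaturated fatty acids (VLCPUFA), 4 ate the chow with 1% of that oil, and 4 ate it without the oil (control). Each diet was given to 2 males and 2 females: 5% males N975 and N976, 5% females N987 and N988, 1% males N971 and N972, 1% females N983 and N984, control males N967 and N968, and control females N979 and N980.

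Complement is a cascade of plasma proteins that tags microbes and damaged cells and can punch holes in their membranes. C3 is the central protein of all its routes of activation. Its larger fragment binds surfaces and pairs with factor B, encoded by Cfb, to form the enzyme of the alternative pathway that cleaves more C3, while factor I, encoded by Cfi, is the protease that destroys that fragment. Hc encodes C5, whose cleavage starts the terminal pathway: C5b binds C6 and C7, then C8, and finally a ring of C9 molecules, which together form the membrane attack complex. C8 is built from 3 chains encoded by separate genes, C8a, C8b and C8g; the C8g chain belongs to the lipocalins and is no relative of the other chains. The liver is the main source of most of these plasma proteins, and male laboratory mice are known for higher terminal complement activity in serum than females.

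The promoters of the 4 terminal pathway genes that differed most between the sexes, among them the gene with the largest diet difference, C9, are printed as 300 bases each, 250 before and 50 after the annotated start (RefSeq, build GRCm38.p6), written 5′ to 3′ on the gene's strand. Capitals mark matches, on either strand, to any of 7 motifs of liver transcription factors or of the core promoter.
C9 promoter, chr15:6445096-6445395, plus strand: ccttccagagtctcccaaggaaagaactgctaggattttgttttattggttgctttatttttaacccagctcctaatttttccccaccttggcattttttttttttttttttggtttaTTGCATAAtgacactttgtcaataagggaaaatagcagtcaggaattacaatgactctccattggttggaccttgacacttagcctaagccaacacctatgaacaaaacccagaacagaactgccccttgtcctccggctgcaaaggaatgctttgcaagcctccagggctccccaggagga
C8a promoter, chr4:104876349-104876648, minus strand: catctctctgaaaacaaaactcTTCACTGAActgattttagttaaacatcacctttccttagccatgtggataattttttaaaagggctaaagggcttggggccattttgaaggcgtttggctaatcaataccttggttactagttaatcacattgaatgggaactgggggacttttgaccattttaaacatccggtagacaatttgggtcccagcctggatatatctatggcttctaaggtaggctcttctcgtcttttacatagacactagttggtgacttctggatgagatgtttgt
C8b promoter, chr4:104766067-104766366, plus strand: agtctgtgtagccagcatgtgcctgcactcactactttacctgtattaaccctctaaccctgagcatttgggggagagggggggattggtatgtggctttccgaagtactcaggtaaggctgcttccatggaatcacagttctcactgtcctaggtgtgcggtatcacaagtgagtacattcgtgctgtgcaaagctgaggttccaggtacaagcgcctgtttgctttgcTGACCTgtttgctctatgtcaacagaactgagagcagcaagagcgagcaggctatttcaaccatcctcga
C6 promoter, chr15:4726960-4727259, plus strand: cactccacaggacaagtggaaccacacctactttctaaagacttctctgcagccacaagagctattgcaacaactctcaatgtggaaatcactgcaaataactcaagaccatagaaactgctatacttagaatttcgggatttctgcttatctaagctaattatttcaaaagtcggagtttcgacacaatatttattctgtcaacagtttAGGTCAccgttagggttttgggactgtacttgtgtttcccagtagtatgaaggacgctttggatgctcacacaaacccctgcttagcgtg
The core of the HNF4 motif was searched as the letters CAAAGTC. For C/EBP factors the letters were TTGCNNAA, where N is any base, and for STAT5 they were TTCNNNGAA. The D-box was searched as TTATGTAA and the E-box as CACGTG. The TATA box was searched as TATAAA, and the motif shared by many nuclear receptors as AGGTCA. The C9 window held 1 match, to the C/EBP motif at position -132 from the start. The C8a window held the STAT5 motif at -228, the C8b window the nuclear receptor motif at -20, and the C6 window the nuclear receptor motif at -40. Over all 32851 windows of the same length in the reference table, the C/EBP motif was found in 10.8%, the STAT5 motif in 8.30% and the nuclear receptor motif in 16.3%. The HNF4 core, the D-box and the E-box, found in 4.44%, 0.938% and 7.15% of all windows, matched none of the 8 windows of member genes; 7 members had a window, C8g had 2, and Cfb and Cfi had none in the table. No matched motif overlapped another, and a match describes letters, not binding. C6 and C9 lie on chromosome 15, C8a and C8b on chromosome 4, Hc and C8g on chromosome 2 and C3 on chromosome 17.

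Library totals ran from 5291385 to 15674130 estimated reads, of which the 9 genes took between 0.648% and 1.10%. The hepatocyte markers set for the liver (10 of 10 detected in each diet) were abundant, with a summed level of 108187 to 131257 CPM (counts scaled to the same library total) in 5% livers, 121019 to 138065 in 1% livers and 123626 to 203792 in control livers. In bulk tissue, fewer hepatocytes and less RNA per hepatocyte cannot be told apart. Kupffer cell and macrophage markers summed to 157 to 423 CPM in 5% livers, 169 to 412 in 1% livers and 324 to 661 in control livers, with none of the 11 at 0 reads. The 4 libraries with the highest share of reads from long noncoding genes, called noncoding-rich below, were all female. They were N984 (1% diet) with 1.91%, N979 (control) with 1.63%, N983 (1% diet) with 1.55% and N988 (5% diet) with 1.24%. The others ran from 0.646% to 1.06%, the highest being 1% male N971, so no clear gap lay below N988. Nothing in the labels gives an order or day of library preparation.

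Levels of the 9 mRNAs spanned a wide range. Per length, in TPM (transcript counts per length, scaled to the same total in each library), C3 averaged 2069 ± 507 (SD, n = 12 libraries), Cfb 1060 ± 285, C8g 583 ± 152, Cfi 312 ± 75.4, Hc 273 ± 46.3, C8a 136 ± 97.5, C9 136 ± 99.8, C8b 52.3 ± 29.8 and C6 41.3 ± 38.3. The first 3 ranks held in 12 of 12 libraries in TPM, which counts reads of short forms at their short lengths. Divided instead by the length of the longest main coding form, mean CPM per kb was 1008 for C3, 372 for Cfb and 331 for C8g. By that measure the lead of Cfb over C8g was smaller, and its hold in each library was not examined. The ranks that follow are in TPM. Cfi was above Hc in 8 of 12 and C8a above C9 in 6 of 12. C9 was above C8b in 9 of 12 and C8b above C6 in 9 of 12, so these ranks did not hold throughout. The livers with C9 below C8b were N987, N975 and N976, all on the 5% diet. The 3 chains of C8 were thus unequal as mRNA, with C8g TPM the highest and C8b TPM the lowest of them on average. The lowest pair lay level in males, while in females C8b was above C6. C8b averaged 76.3 ± 19.4 TPM in males and 28.3 ± 13.7 TPM in females, and C6 75.2 ± 21.5 TPM in males and 7.35 ± 1.86 TPM in females (SD, n = 6 each).

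**Figure D1:**
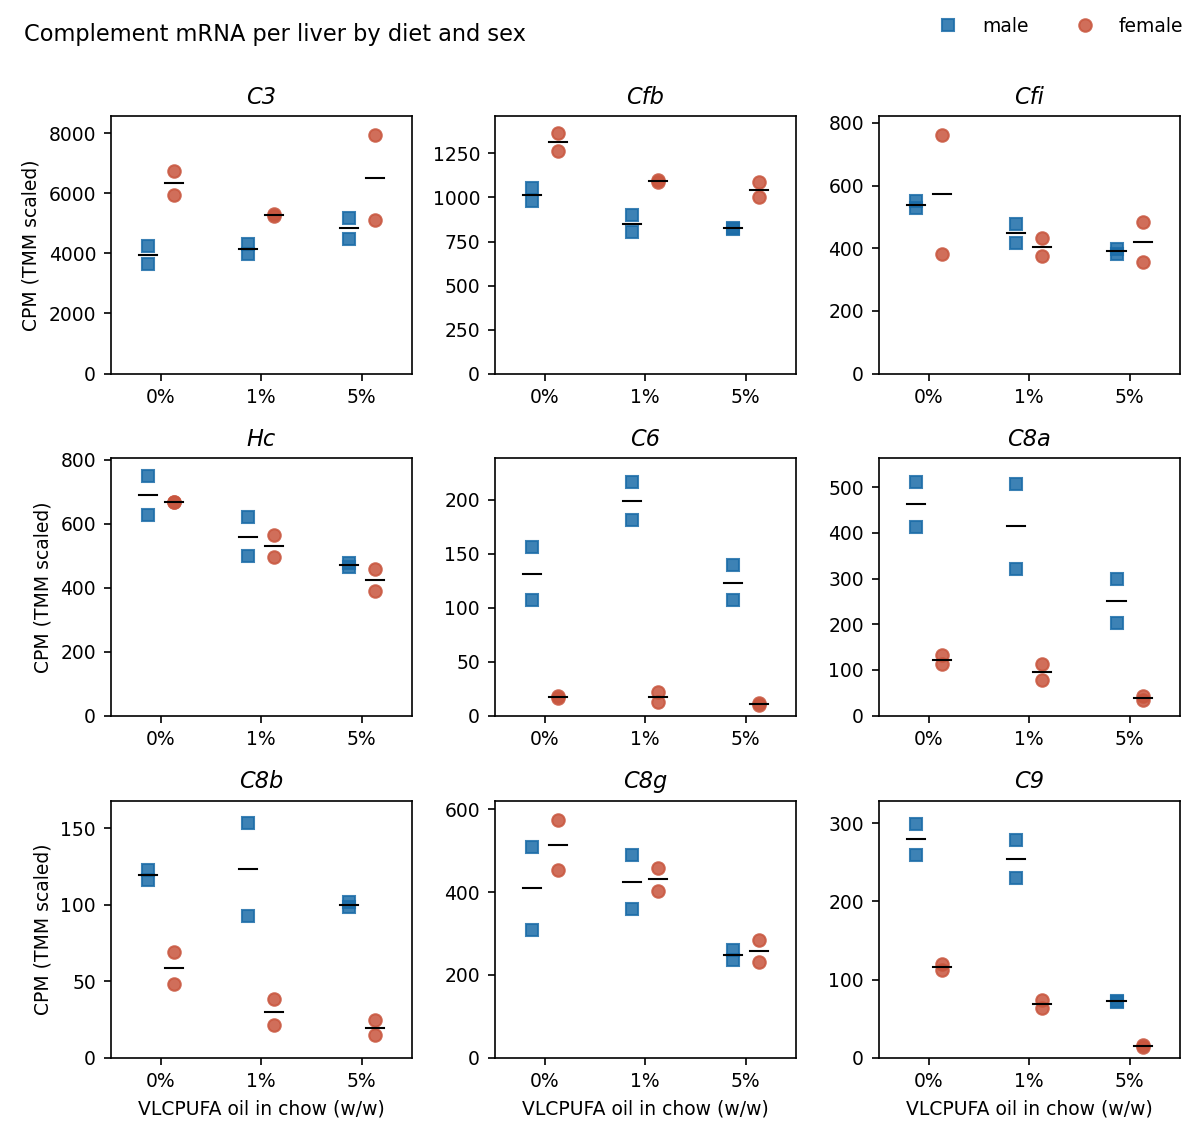
CPM (y axis, scaled by TMM library factors, from 0) of each of the 9 complement mRNAs in the 12 livers, by percent of VLCPUFA oil in the chow (x axis); squares are males, circles females, and each black bar is the mean of 2 livers. C9 was lowest at 5% oil within each sex, and C6, C8a, C8b and C9 were higher in males on each diet. C3 at 5% oil lay above control in males and overlapped control in females.

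Livers of the 5% diet were first set against those of the chow without oil. C9, C8a, C8g and Hc, all genes of the terminal pathway, fell and none of the 9 rose, by the edgeR quasi-likelihood test with sex as an additive term and p-values adjusted over all 13814 genes (threshold 0.05). That is 4 of 9 members, where 2.46% of all genes tested were called. At an unadjusted p under 0.05 there were 7 of 9, against 2010 of the 13814 genes tested. Of the 9 fold changes 8 were below 0, against 6697 of 13814 over all genes. The median log2 fold change was -0.60, against 0.01 over all genes tested. The activation and control genes C3, Cfb and Cfi did not pass.

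C9, the pore-forming protein that closes the cascade, had the largest difference of the 9. Its level was 72.1 and 71.9 CPM in 5% males and 16.7 and 13.4 CPM in 5% females, against 259.6 and 299.0 CPM in control males and 120.0 and 112.6 CPM in control females. Every 5% liver was below every control liver, the 5% males included. The log2 fold change was -2.45 ± 0.20 (SE), a fold of 0.183 (edgeR adjusted p = 4.47e-05). The call held when each library was left out in turn and when the 4 libraries rich in long noncoding reads were left out together (-2.22, edgeR adjusted p = 0.000319). It was lost without the sex term (-2.19, edgeR adjusted p = 0.189), where the spread between the sexes enters the error. In the authors' deposited table of 261 genes, whose contrast is not named, C9 is the only one of the 9 genes listed, with a log2 fold change of -1.33 and an adjusted p of 0.00125, rank 6 by p.

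C8a encodes the chain of C8 that inserts into the membrane. It stood at 299.2 and 203.6 CPM in 5% males and 34.6 and 42.0 CPM in 5% females, against 512.1 and 411.9 CPM in control males and 113.7 and 131.8 CPM in control females. Within each sex the 5% livers were all below the controls; across the sexes the ranges overlapped, since males were higher on each diet. The log2 fold change was -1.27 ± 0.23 (SE; edgeR adjusted p = 0.00965). The call held without any single library, but not without the 4 noncoding-rich libraries together (-1.23, edgeR adjusted p = 0.0586).

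C8g, the lipocalin chain of C8, had 259.8 and 235.6 CPM in 5% males and 230.6 and 284.7 CPM in 5% females, against 309.2 and 509.1 CPM in control males and 574.2 and 452.3 CPM in control females. The groups did not overlap. Means were 252.7 ± 24.9 CPM on the 5% diet and 461.2 ± 113 CPM on the control diet (SD, n = 4 each), a log2 fold change of -0.86 ± 0.19 (SE; edgeR adjusted p = 0.0267). Without 1 of 6 libraries the adjusted p passed 0.05: it was 0.0839 without 5% female N987, 0.0622 without 5% female N988, 0.0979 without 5% male N976, 0.0561 without control female N979, 0.0579 without control female N980 and 0.121 without control male N968 (edgeR). It was 0.0931 without the 4 noncoding-rich libraries.

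Hc, which encodes C5, had 476.6 and 465.9 CPM in 5% males and 458.3 and 388.7 CPM in 5% females, against 748.3 and 629.0 CPM in control males and 668.1 and 669.5 CPM in control females. Here too the groups did not overlap, and the spread within each was small: 447.4 ± 39.8 CPM on the 5% diet and 678.7 ± 50.02 CPM on the control diet (SD, n = 4 each). The log2 fold change was -0.60 ± 0.14 (SE; edgeR adjusted p = 0.0387), but the call sat at the threshold and was lost without any one of the 12 libraries, with log2 fold changes between -0.65 and -0.54 and edgeR adjusted p from 0.0524 to 0.132. Without the 4 noncoding-rich libraries the adjusted p was 0.155.

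The other terminal genes did not pass. C8b, whose chain lets C8 dock to the growing complex, had 101.7 and 98.4 CPM in 5% males and 24.5 and 15.0 CPM in 5% females, against 116.0 and 122.4 CPM in control males and 48.0 and 69.2 CPM in control females. Within each sex all 5% values were below the controls, and the fitted value was -0.93 ± 0.30 (log2, SE, edgeR adjusted p = 0.139). DESeq2 called it (-0.95, DESeq2 adjusted p = 0.0362), as did edgeR with no filter on low counts (-0.90, edgeR adjusted p = 0.00177). C6, the first protein to join C5b, had 139.5 and 107.2 CPM in 5% males and 11.6 and 9.8 CPM in 5% females, against 156.4 and 106.9 CPM in control males and 18.5 and 16.6 CPM in control females (-0.40 ± 0.22, edgeR adjusted p = 0.447). The males of the diets overlapped in C6, while both 5% females were below both control females.

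C3, the most abundant of the 9, had 4479.6 and 5177.6 CPM in 5% males and 7939.4 and 5097.0 CPM in 5% females, against 4258.5 and 3644.0 CPM in control males and 6753.0 and 5934.4 CPM in control females. Both 5% males were above both control males, while the females of the diets overlapped. Across the sexes the groups overlapped, and the log2 fold change was 0.16 ± 0.17 (SE, edgeR adjusted p = 0.750). Cfb had 823.2 and 827.4 CPM in 5% males and 1087.7 and 1001.5 CPM in 5% females, against 981.4 and 1052.1 CPM in control males and 1262.4 and 1363.4 CPM in control females. Within each sex the 5% livers were below the controls, with a log2 fold change of -0.32 ± 0.13 (SE; edgeR adjusted p = 0.267), a value that DESeq2 called (adjusted p = 0.0176). Cfi had 398.8 and 381.3 CPM in 5% males and 483.7 and 356.1 CPM in 5% females, against 551.2 and 527.5 CPM in control males and 382.6 and 761.8 CPM in control females (-0.46 ± 0.20, edgeR adjusted p = 0.302). The control females were spread more widely in Cfi than in any other group of 2 livers for that gene.

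**Figure D2:**
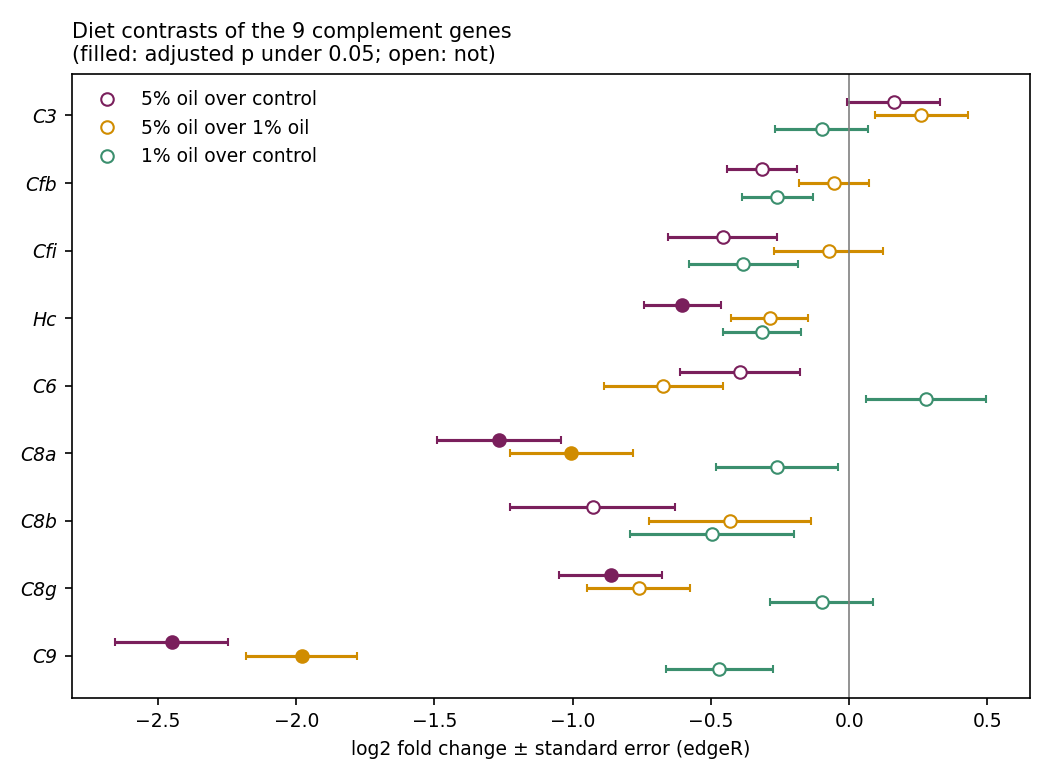
Log2 fold change with its standard error (x axis, edgeR) of each of the 9 genes (rows) for 5% oil over control, 5% oil over 1% oil and 1% oil over control; filled points passed an adjusted p of 0.05. C9, C8a, C8g and Hc are filled at 5% over control, C9 and C8a at 5% over 1%, and none at 1% over control.

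For the 1% diet set against control, none of the 9 genes passed in edgeR or in DESeq2, where edgeR called 0.224% of all genes tested. At an unadjusted p under 0.05 there were 2 of 9, against 1530 of the 13814 genes tested. They were Hc at -0.32 ± 0.14 and C9 at -0.47 ± 0.19 on the log2 scale (SE, edgeR adjusted p = 0.434 and 0.398). C9 had 279.1 and 229.3 CPM in 1% males and 73.9 and 63.2 CPM in 1% females, against the control values given above. The 1% females were below both control females, while the males of the diets overlapped. Hc had 621.6 and 498.8 CPM in 1% males and 565.6 and 496.3 CPM in 1% females, all below the lowest control liver (629.0 CPM). The remaining fold changes ran from -0.50 ± 0.30 for C8b to 0.28 ± 0.22 for C6 (log2, SE). This comparison and the 5% one share the control livers. All 11 Kupffer cell and macrophage markers were below 0 on the 1% diet (median log2 fold change -0.70, 10 at an unadjusted p under 0.05, none called by edgeR), and their part in these values was not tested.

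Between the doses, C9 and C8a were lower on the 5% diet than on the 1% diet: C9 with a log2 fold change of -1.98 ± 0.20 (SE; edgeR adjusted p = 0.000736) and C8a with a fold of 0.498 (edgeR adjusted p = 0.0447), against a background of 1.33% of genes called. C8a had 507.3 and 320.8 CPM in 1% males and 113.0 and 79.2 CPM in 1% females, so that each 5% liver was below both 1% livers of its sex. The C8a call was lost without any one of 9 libraries, which were N987, N988, N976, N983, N984, N971, N972, N967 and N968, with edgeR adjusted p from 0.0523 to 0.157, and without the 4 noncoding-rich libraries (0.282). The C9 call held in each of these settings, but not without the sex term (edgeR adjusted p = 0.2501). Leaving out the 4 noncoding-rich libraries removed both 1% females, N983 and N984. C8g, with 359.5 and 490.6 CPM in 1% males and 403.7 and 459.3 CPM in 1% females, was below all of these in each 5% liver but missed the threshold (-0.76 ± 0.19, edgeR adjusted p = 0.0588). C8g was called in 4 of 26 alternatives: DESeq2 (adjusted p = 0.00388), no filter (0.0158), the libraries of these diets alone (0.0379) and without control female N979 (0.0370). C6 was at 216.6 and 181.1 CPM in 1% males and 12.2 and 21.7 CPM in 1% females (-0.67 ± 0.22, edgeR adjusted p = 0.135), so the 1% males were above the males of both other diets. C3, Cfb and Cfi had 5% over 1% values of 0.26 ± 0.17, -0.05 ± 0.13 and -0.07 ± 0.20 (log2, SE). Between the doses all 5 markers of sinusoidal endothelium were below 0 (median -0.60, 3 at an unadjusted p under 0.05, none called), with sums of 82.7 to 116 CPM in 5% livers and 125.5 to 181 CPM in 1% livers, while all 11 Kupffer cell and macrophage markers were above 0 (median 0.30, 1 at an unadjusted p under 0.05, none called). Over all genes tested, 2454 of 13814 had an unadjusted p under 0.05 between the doses. The part of these markers in the values was not tested.

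When the amount of oil was fitted as a numeric slope, 3 of 9 genes fell with dose, where 2.23% of all genes had a slope past the threshold. The slopes were -0.49 ± 0.04 log2 units per percent of oil for C9, -0.25 ± 0.04 for C8a and -0.18 ± 0.04 for C8g (SE; edgeR adjusted p = 3.52e-05, 0.00882 and 0.0195). Hc had -0.11 ± 0.03 (edgeR adjusted p = 0.0667) and was called in 5 of 23 alternatives, with adjusted p from 0.000873 with DESeq2 to 0.0489 with limma voom. Without 5% female N988 only the C9 slope passed (C8a edgeR adjusted p = 0.0506 and C8g 0.0701), and the C8g slope also missed without N987 (0.0906), N976 (0.0948) or control male N968 (0.0586). Without the 4 noncoding-rich libraries too, C9 alone passed (C8a 0.0701 and C8g 0.115).

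Between the sexes, males were higher than females in C6, C8a, C9 and C8b, and lower in C3 and Cfb, so 6 of 9 passed where 8.94% of all genes tested were called. C6 had the largest difference: it ran from 106.9 to 216.6 CPM with a median of 148.0 in 6 males and from 9.8 to 21.7 CPM with a median of 14.4 in 6 females, a log2 fold change of 3.33 ± 0.19 (SE; edgeR adjusted p = 1.64e-07). No female reached the lowest male. C8a ran from 203.6 to 512.1 CPM in males and from 34.6 to 131.8 CPM in females, also without overlap (2.24 ± 0.19, edgeR adjusted p = 6.92e-06). C8b ran from 92.9 to 153.1 CPM in males and from 15.0 to 69.2 CPM in females (1.80 ± 0.25, edgeR adjusted p = 0.000778), and the sexes did not overlap. C9 ran from 71.9 to 299.0 CPM in males and from 13.4 to 120.0 CPM in females (1.80 ± 0.16, edgeR adjusted p = 1.40e-05). For C9 the sexes overlapped across diets, since the 5% males were below the control females, but not within any diet.

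The activation genes went the other way. C3 ran from 3644.0 to 5177.6 CPM in males and from 5097.0 to 7939.4 CPM in females, a log2 fold change of -0.49 ± 0.14 (SE; edgeR adjusted p = 0.0424), and Cfb from 802.4 to 1052.1 CPM in males and from 1001.5 to 1363.4 CPM in females (-0.36 ± 0.10, edgeR adjusted p = 0.0489). The Cfb call was lost without any one of the 12 libraries (edgeR adjusted p from 0.0717 to 0.144), and the C3 call without any one of 11 of them, N988 being the exception (0.0513 to 0.111). Since the 4 noncoding-rich libraries are all female, their share of reads moves with sex: with that share as a covariate C3 had -0.54 (edgeR adjusted p = 0.151) and Cfb -0.41 (0.158). With the 4 left out C3 (-0.68, edgeR adjusted p = 0.122) and Cfb (-0.44, 0.309) lost their calls, and C8b alone of the male-higher genes lost its call too (1.34, edgeR adjusted p = 0.0882). With the 4 left out, N980 and N987 were the only females that remained. In the main fit Hc (0.09 ± 0.11), C8g (-0.13 ± 0.15) and Cfi (-0.01 ± 0.16) did not pass (log2, SE), the smallest edgeR adjusted p being the 0.579 of C8g. All 11 Kupffer cell and macrophage markers were below 0 in males over females (median log2 fold change -0.63, 8 at an unadjusted p under 0.05, 1 called, Clec4f), and their part in the sex differences was not tested. Over all genes tested, 3961 of 13814 had an unadjusted p under 0.05 between the sexes.

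**Figure D3:**
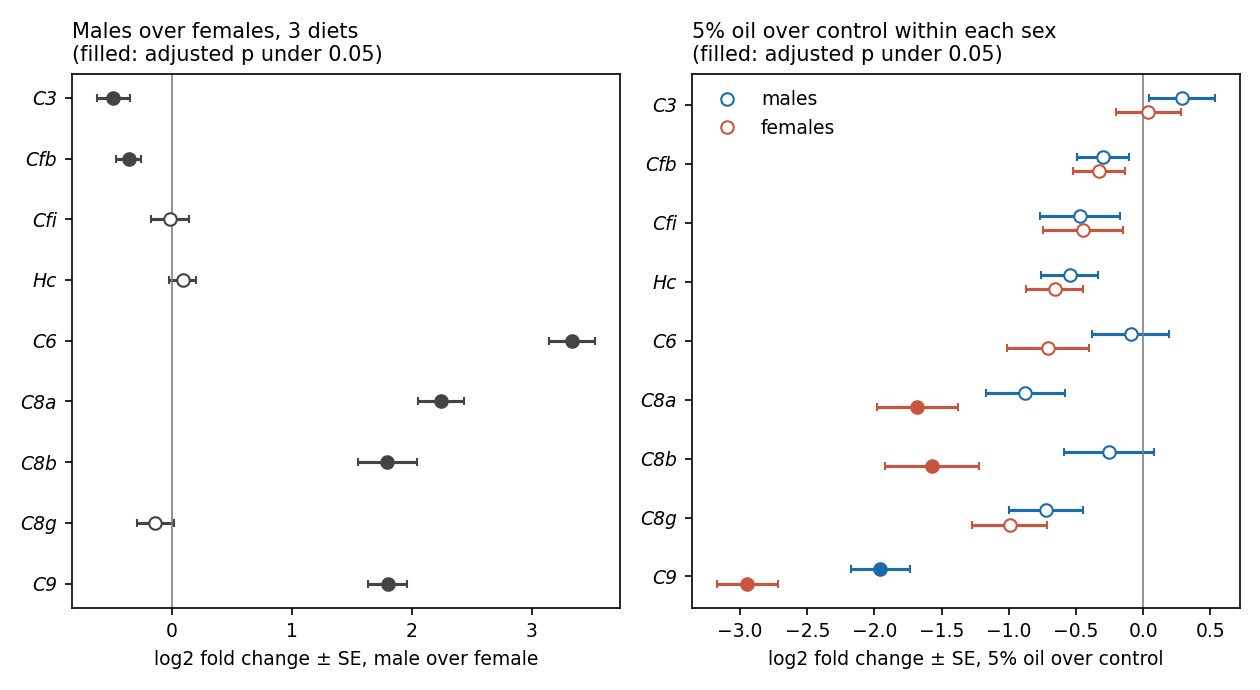
Log2 fold change with its standard error (x axes, edgeR) of the 9 genes (rows): males over females across the 3 diets on the left, and 5% oil over control within males and within females on the right; filled points passed an adjusted p of 0.05. C6, C8a, C8b and C9 are filled on the male side at left, and at right C9 is filled in both sexes, C8a and C8b in females.

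Within females C9, C8a and C8b fell on the 5% diet, with log2 fold changes of -2.95 ± 0.23, -1.68 ± 0.30 and -1.57 ± 0.35 (SE; edgeR adjusted p = 0.000205, 0.0171 and 0.0455), 3 of 9 where 1.85% of genes were called. Within males C9 alone passed, at -1.96 ± 0.22 (edgeR adjusted p = 0.00980), 1 of 9 where 0.181% were called; C8a had -0.88 ± 0.29 and C8b -0.25 ± 0.34 there. Each of these groups holds 2 livers, with the spread shared over the 6 groups. The male call of C9 was lost without N975 (edgeR adjusted p = 0.0832), N976 (0.114) or N968 (0.143), the female call of C8a without N987 (0.116) or N988 (0.0710), and that of C8b without any one of 8 libraries (0.0510 to 0.228): N987, N988, N975, N976, N972, N980, N967 and N968. Whether the sexes differ in the response was tested directly. For the 5% response no gene of the 13814 passed in edgeR (0% called, 645 at an unadjusted p under 0.05), while DESeq2 called 34 genes and none of the 9. C9 and C8b were the 2 members at an unadjusted p under 0.05. The male minus female difference of the log2 response was 0.99 ± 0.30 for C9 (SE; edgeR adjusted p = 0.705) and 1.32 ± 0.48 for C8b (SE; edgeR adjusted p = 0.873). For the 1% response no gene passed in edgeR either (0% called, 517 at an unadjusted p under 0.05, none of them a member), while DESeq2 called 6 genes and none of the 9.

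The deposited transcript table shows which annotated forms carried the reads. C9 reads went mainly to the full transcript of 2048 nt and 11 exons (80.2% over all libraries), and 19.6% went to a 543-nt form of 3 exons, all of whose bases lie within exons 8 to 11 of the full one. The share of the 543-nt form was 4.64% and 10.1% in 5% males (N976 and N975), 9.60% and 27.3% in 5% females (N987 and N988), 22.3% and 23.1% in 1% males (N972 and N971), 35.0% and 39.6% in 1% females (N984 and N983), 2.58% and 20.8% in control males (N967 and N968), and 13.3% and 39.3% in control females (N980 and N979). The 4 highest shares were those of the 4 noncoding-rich libraries. The full C9 transcript was still lower on the 5% diet (log2 fold change -2.31 ± 0.25, edgeR adjusted p = 0.0227 over 32998 transcripts, of which 0.0273% were called), and it was higher in males (2.08 ± 0.20, edgeR adjusted p = 0.00102, where 0.603% were called). The short form had -3.14 ± 0.65 for the 5% diet (edgeR adjusted p = 0.175).

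Other members split their reads likewise. A 1061-nt noncoding form of C8b that overlaps exons 10 to 12 of the 12 took from 0% to 58.1% of that gene's reads, the highest share being in control female N979. A 749-nt form of C8a, overlapping exons between 5 and 11 of 11, took from 2.13% to 34.1%. A 905-nt form of Cfb, within exons 9 to 18 of 18, took from 11.96% to 46.3%, and both were again highest in N979. By contrast Cfi reads went almost wholly to 1 transcript of 2079 nt (99.99%), C6 reads to one of 2876 nt (96.3%) and C3 reads to one of 5136 nt (94.4%). For C8g the reads were shared between an 822-nt form (55.5%) and a 1150-nt form (30.1%), with 5% over control values of -1.07 ± 0.29 and -0.58 ± 0.29 (log2, SE; edgeR adjusted p = 0.381 and 0.846). Reads that fit several forms are divided by estimation, and whether the short forms are transcripts of their own or pieces of the longer ones was not tested.

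**Figure D4:**
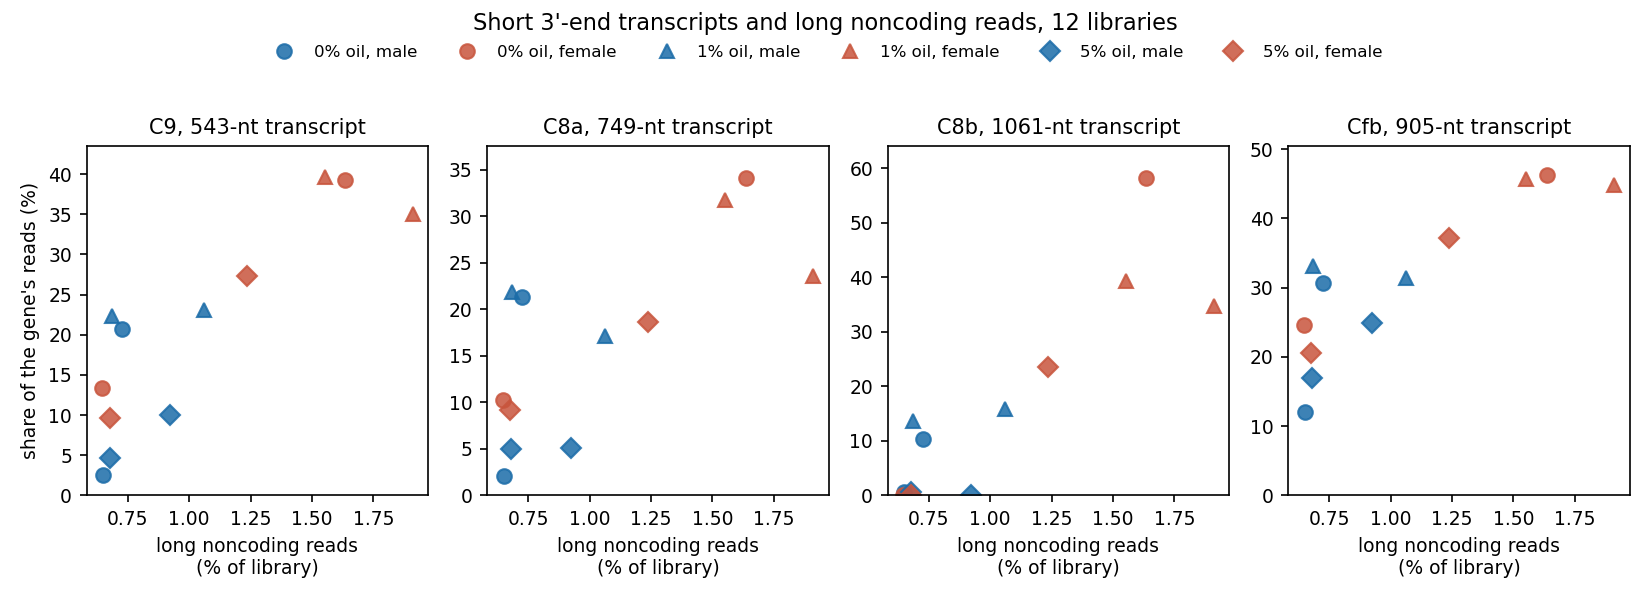
Share of a gene's reads assigned to a short form that overlaps the last exon (y axes, percent, from 0) for C9, C8a, C8b and Cfb, against the share of library reads in long noncoding genes (x axes, percent), for the 12 livers by diet (symbol) and sex (color). The C8a and Cfb forms also overlap exons from the middle of the gene. The 4 libraries to the right of 1.06% hold the 4 highest C9 shares, 27.3% to 39.6%, and they come from all 3 diets.

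The rest of the complement system was read from a list of 49 genes, of which 42 were tested. On the 5% diet against control, 3 fell and none rose: C4b, the C4 protein of the classical and lectin routes, C1s1, the protease that cleaves it, and Serping1, the inhibitor of that protease. That is 3 of 42, where 2.46% of all genes tested were called. Of the 42, 36 were below 0, against 6697 of the 13814 genes tested. Their median log2 fold change was -0.33, against 0.01 over all genes tested. C4b had 512.4 and 616.4 CPM in 5% males and 690.1 and 612.9 CPM in 5% females, against 1136.0 and 897.5 CPM in control males and 1301.6 and 1292.1 CPM in control females. No 5% liver reached the lowest control, and the log2 fold change of -0.92 ± 0.14 (SE; edgeR adjusted p = 0.00524) was called under each of the 26 alternatives tried. C1s1 averaged 393.3 ± 29.4 CPM on the 5% diet and 632.7 ± 103 CPM on the control diet (SD, n = 4 each; log2 -0.68 ± 0.15, edgeR adjusted p = 0.0338). Serping1 averaged 470.1 ± 83.7 CPM on the 5% diet and 715.6 ± 49.8 CPM on the control diet (-0.62 ± 0.15, edgeR adjusted p = 0.0449). C1s1 was lost without any one of N987, N988, N976, N984, N972, N980, N967 and N968 (edgeR adjusted p 0.0580 to 0.135), and Serping1 without any one of 10 libraries, all but N975 and N967 (0.0657 to 0.153), or without the 4 noncoding-rich libraries (0.198). With all libraries kept, both calls were also lost with no filter (edgeR adjusted p = 0.0582 for C1s1 and 0.122 for Serping1). The same held with limma on the deposited CPM (limma adjusted p = 0.0588 and 0.0646). C1s1 kept its call in 14 of 26 alternatives and Serping1 in 11 of 26. C4b and C1s1 have near-identical copies, so their reads could be shared: C4a averaged 20.1 CPM over all livers, and C1s2 reached 0.189 CPM at most.

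By role, the 15 classical and lectin genes tested were all below 0 (median -0.46), as were the 11 soluble regulators (median -0.45), 1 of which, Serping1, passed. Vitronectin (Vtn), which binds the terminal complex in plasma, is the most abundant soluble regulator of the list and averaged 1488 ± 205 CPM on the 5% diet and 2121 ± 528 CPM on the control diet (SD, n = 4 each; log2 -0.50 ± 0.16, edgeR adjusted p = 0.118). None of the 5 membrane regulators or 8 receptors passed (medians -0.16 and -0.01). Cd59a, which blocks C9 on the cell's own membrane, had -0.33 ± 0.16 and Vsig4, a C3 fragment receptor of Kupffer cells, -0.48 ± 0.36 (log2, SE; edgeR adjusted p = 0.372 and 0.621). C7, the terminal component missing from the 9, was near 0 throughout, with 0.593 ± 0.718 CPM on the 5% diet and 0.539 ± 0.429 CPM on the control diet (SD, n = 4 each). Properdin (Cfp), which stabilizes the alternative pathway enzyme, had -0.75 ± 0.21 (edgeR adjusted p = 0.0744), and factor D (Cfd), which cleaves factor B, 2.15 ± 0.75 (edgeR adjusted p = 0.183). The hepatocyte markers moved in the same direction on the 5% diet, with 9 of 10 below 0, a median of -0.38 and 1 called, Ass1, a urea cycle enzyme (log2 -1.32 ± 0.21, edgeR adjusted p = 0.00647). All 11 Kupffer cell and macrophage markers were below 0 as well (median -0.48, none called by edgeR, 0 at an unadjusted p under 0.05); 5 of them, C1qa, C1qb, C1qc, Cd5l and Vsig4, also stand in the complement list. The 5 markers of sinusoidal endothelium had a median of -0.44 (4 below 0, 2 at an unadjusted p under 0.05, none called), and within females -0.85 (5 below 0, 1 called, Clec4g). Their part in the complement values was not tested.

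**Figure D5:**
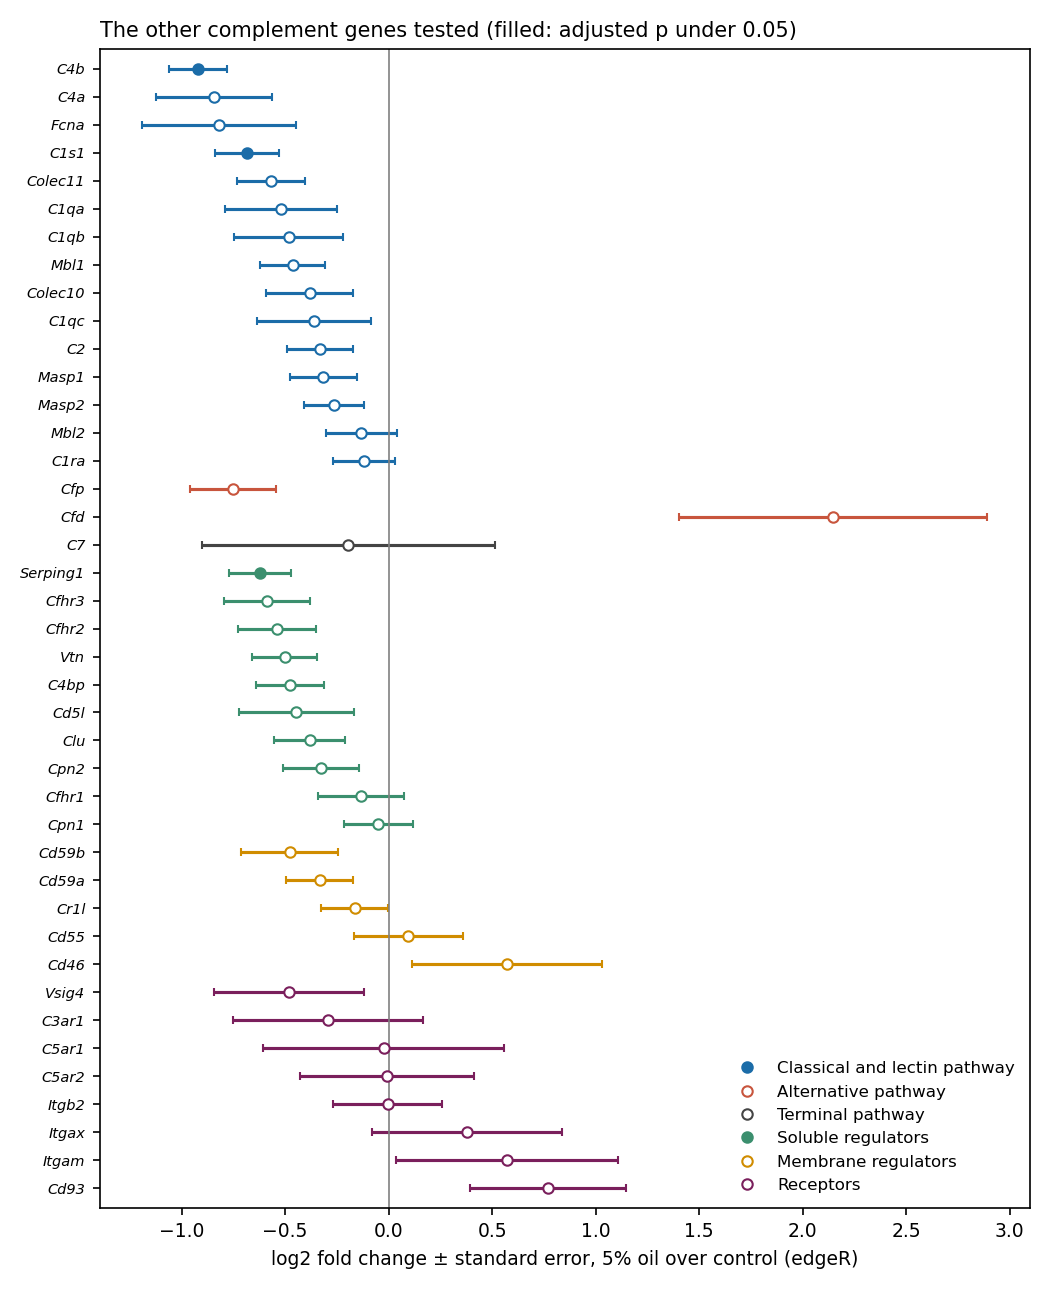
Log2 fold change with its standard error (x axis, edgeR, 5% oil over control) of other complement genes tested (rows), colored by role; filled points passed an adjusted p of 0.05. C4b, C1s1 and Serping1 are filled, and the classical and lectin genes and soluble regulators shown lie left of 0.

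On the 1% diet against control none of the 42 passed in edgeR, while DESeq2 called C1s1 and C4b. At an unadjusted p under 0.05 there were 12 of 42, against 1530 of the 13814 genes tested (edgeR). For 5% against 1%, edgeR called none and DESeq2 called Serping1 and Vtn. Here 5 of 42 had an unadjusted p under 0.05, against 2454 of the 13814 genes tested (edgeR). Between the sexes 5 of the 42 were higher in males and 1 lower, where 8.94% of all genes tested were called. Cfd averaged 11.4 ± 9.37 CPM in males and 0.0906 ± 0.143 CPM in females (SD, n = 6 each; log2 6.50 ± 0.69, edgeR adjusted p = 0.000131). C4a had 1.15 ± 0.23, C4bp, which controls C4, 0.58 ± 0.13 and Cfhr2 0.53 ± 0.15, while Cfp was lower in males at -1.30 ± 0.17 (log2, SE; edgeR adjusted p = 0.00873, 0.0187, 0.0475 and 0.000387). With the long noncoding share as a covariate C4bp and Cfhr2 lost their calls (edgeR adjusted p = 0.227 and 0.420). Cfd, C4a, C4bp and Cfhr2 did so with the 4 noncoding-rich libraries left out, where Cfp was kept. Leaving out single libraries also ended the calls of Cfhr2 (any one of 10, all but N987 and N980, edgeR adjusted p 0.0738 to 0.121) and C4bp (any one of N984, N972, N967 and N968, 0.0501 to 0.0601).

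A list of 24 transcription factors and cytokine receptors that act on hepatocyte complement genes or on sex-dependent liver genes was fully tested. On the 5% diet Dbp, Tef and Hlf, the factors that bind the D-box, rose and Nfil3, which competes for the same element, fell. These were 4 of 24, where 2.46% of all genes tested were called. Dbp averaged 26.4 ± 11.3 CPM on the 5% diet and 0.566 ± 0.408 CPM on the control diet (SD, n = 4 each; log2 5.36 ± 0.83, edgeR adjusted p = 0.00919); limma voom did not call it (adjusted p = 0.0776). Tef had 1.79 ± 0.29, Hlf 1.14 ± 0.21 and Nfil3 -2.09 ± 0.34 (log2, SE; edgeR adjusted p = 0.00671, 0.0126 and 0.00750). On the 1% diet Tef passed (1.65 ± 0.29, edgeR adjusted p = 0.0292), 1 of 24 where 0.224% of all genes tested were called. That call was lost without any one of N984, N971, N972, N980, N967 and N968 (0.0558 to 0.110). Other factors known from liver promoters did not pass on the 5% diet: Hnf4a had 0.14 ± 0.18, Cebpa 0.64 ± 0.19, Cebpb 0.33 ± 0.30 and Stat3 -0.54 ± 0.17 (log2, SE), with edgeR adjusted p of 0.824, 0.111, 0.705 and 0.123. These 4, and the marker Ass1, were picked for mention after their values were seen. Between the sexes Cux2, a repressor known from female liver, was lower in males (-6.36 ± 0.71, edgeR adjusted p = 0.000457). No other of the 24 passed there, where 8.94% of all genes tested were called.

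The genes whose levels followed each diet-sensitive member most closely were ranked by Pearson's r of log2 CPM over the 12 libraries among 7931 genes, as a description. For C9 they were Slc10a2 (0.945), Nat8f2 (0.939) and Serpina1c (0.934), and for C8a Serpine2 (0.964), Serpina1e (0.959) and Mup21 (0.955). For C8a the sexes form separate clusters, and C9 differs between the sexes within each diet, so sex enters these values; Serpina1 and Mup genes have near-identical copies. For C8g the nearest were Tmem86b (0.974), Agmat (0.933) and Apof (0.930), and for Hc Dtx4 (0.917), Arntl (0.908) and Parp16 (0.902). Among the 50 nearest genes there were 3 other members for C8a, 1 for C9 and none for C8g or Hc.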

How the data were processed

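Poly(A) RNA of 12 mouse livers, selected for an RNA integrity number above 7, was sequenced from stranded libraries, per the labels' protocols; the labels give 4 livers per diet. The submitters' processing notes name kallisto, edgeR and limma, without versions or roles, and the build GRCm39. The deposited gene and transcript tables hold estimated counts (11.7% of the gene values are not whole), which were rounded here. The authors also deposited a CPM table of 11339 genes, used with a pseudocount of 0.5 in an alternative, and a table of 261 genes with log2 fold changes and p-values, per the file headers; that table's score per library, CPM-like and adjusted by the authors in a way not stated, was not used in any test. Symbols matched 48845 gene identifiers and not 553. Whether counting used the strand is not given in the sources used here.

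Genes were kept by filterByExpr across the 6 combinations of sex and diet (edgeR 4.0.16, R 4.3.3). TMM factors and a robust quasi-likelihood fit over all 12 libraries gave diet effects with sex as an additive term (common coefficient of variation 0.266). A 6-group fit gave effects within each sex. Tests are 2-sided, with Benjamini-Hochberg adjustment over all genes. CPM are TMM scaled. Standard errors are the log2 fold change over the root of F. TPM used transcript lengths of GENCODE vM21. limma 3.58.1 and DESeq2 1.42.0 served in alternatives. The fit was also run on counts simulated from its own dispersions without a sex effect. That run checks the code, not these results. P-values measure the spread between animals, and nothing says whether littermates were used.

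The 9 genes and the lists were chosen with earlier results of these data known. All 9 are reported in each comparison. Of the other lists, genes past the threshold in a diet contrast are named, with up to 6 for the sexes, and where a role group had none its most abundant gene. Single genes of these lists that enter the counts are not reported here.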

Additional observations from a re-analysis of the deposited data

How the results depend on the processing

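C9 on the 5% diet against control kept its direction and call in 25 of 26 alternatives (-2.59 to -2.19), the exception being no sex term. The count of members called for 5% against control, 4, was 6 with DESeq2, 2 with limma on the deposited CPM or only the libraries compared, 0 without the sex term, 1 with the 4 noncoding-rich libraries left out (an alternative chosen after seeing the data), and 2 to 3 without single libraries. For 5% against 1%, 2 became 4 with no filter and 3 with DESeq2 or only the libraries compared. It became 1 with limma on CPM, the long noncoding share as covariate or the 4 libraries left out, 0 without the sex term, and 1 to 3 without single libraries. The slope count, 3, was 4 with upper quartile factors, no filter, the stricter filter, DESeq2, limma voom or the noncoding covariate. It was 1 with the 4 libraries left out and 1 to 3 without single libraries. The sex count, 6, was 3 with the 4 libraries left out and 4 to 5 without single libraries. Of the genes in that count, Cfb kept its call in 6 of 23 alternatives and C3 in 10 of 23. Both lost it with the noncoding covariate. Fewer samples were fitted where libraries were left out, and the cause of the other shifts was not tested.

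Counts of other complement genes (3 on the 5% diet) were 5 with no filter, 7 with DESeq2, 1 with limma on CPM, no sex term or only the libraries compared, and 1 to 3 without single libraries. On the 1% diet (0) they were 4 with no filter, 2 with DESeq2, 1 with only the libraries compared, and 0 to 1; for 5% against 1% (0) they were 1 with no filter and 2 with DESeq2. Between the sexes (6) they were 13 with no filter, 12 with DESeq2, 14 with limma on CPM, 2 with the 4 libraries left out, and 3 to 7 without single libraries. Counts of transcription factors were 8 with no filter on the 5% diet (4; 4 to 7 without single libraries). On the 1% diet (1) they were 6 with no filter, 4 with DESeq2, 2 with the stricter filter, limma on CPM, the non-robust fit or the 4 libraries left out, 0 with no sex term or averaged cell means, and 0 to 2. For 5% against 1% (0) they were 7 with no filter, 1 with DESeq2, the noncoding covariate or only the libraries compared, and 0 to 2. Between the sexes (1) they were 5 with no filter, 3 with DESeq2, 2 with the covariate, and 1 to 2.

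Signs turned for small differences that were not called. For 1% against control these were C8g (-0.25 to 0.012 without single libraries, 0.019 with the 4 left out) and C3 (0.10 with the 4 left out). For 5% against 1%, limma on CPM gave 0.030 for Cfb and 0.0070 for Cfi. Between the sexes, Cfi had 0.020 with limma voom and -0.11 to 0.15 without single libraries, and Hc -0.012 with limma on CPM. Within females C3 ran from -0.32 to 0.33 and Cfi from -0.86 to 0.18 without single libraries, and within males C6 from -0.34 to 0.21, with 0.049 for limma on CPM. Over all genes, calls for 5% against control (340) ran from 107 to 1011, for 1% (31) from 10 to 649, for 5% against 1% (184) from 8 to 1276, for the sexes (1235) from 156 to 2375 and for the slope (308) from 80 to 1108. For the sex difference of the response, calls over all genes (0) ran from 0 to 229 for the 5% diet and from 0 to 109 for the 1% diet. These ranges cover 21 alternatives, none of which called a member. No paired analysis was possible because no animal number is shared between groups. Other scaling factors, fitted to the same counts, moved the median of all genes by less than 0.1 (log2) in each contrast. Limma on the deposited CPM, which cover fewer genes, moved it by 0.16 for 5% against control and by 0.099 for 5% against 1%. Depth limits genes of few reads, such as C7.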
